A study of Homo sapiens with 33 samples.

Results

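LAPTM5, CD93, LAIR2, SRGN, PTPRC, PPT1 and OSTM1, genes of white blood cells, secretory granules and lysosomes, are described at every array spot that carries their symbol alone. These 7 genes have 12 spots of the 34560 on the array, of which 18025 carry a single gene symbol. The genes were selected on results from these same data. Which result chose each gene is not recorded, and the difference between unstimulated THP-1 and unstimulated CaCo-2 cells was taken as the one used, so it is given as a description, with no test. THP-1 cells come from a human monocytic leukaemia, and CaCo-2 cells come from a human colon carcinoma and have epithelial features. RNA was labelled with a radioactive nucleotide and hybridised to nylon membranes spotted with cDNA clones. Each line was left without stimulation or was given tumour necrosis factor alpha (TNF) at 5 ng per ml for 60 min, and neither line carries a named genetic change. After readings deposited more than once were counted once, 12 THP-1 arrays were used, 5 without and 7 with TNF, and 10 CaCo-2 arrays, 5 without and 5 with TNF. The labels do not say that these are separate cultures. The p-values therefore set a difference between groups only against the spread of arrays within a group, and that spread may be technical.

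PTPRC encodes CD45, the receptor tyrosine phosphatase that covers nucleated blood cells and sets the activity of Src-family kinases. CD93 is a C-type lectin-like surface glycoprotein of monocytes and endothelium, and LAIR2 is a soluble receptor that binds collagen in competition with the inhibitory receptor LAIR1. SRGN encodes serglycin, the core proteoglycan that packs proteases and cytokines into granules. LAPTM5 is a membrane protein of blood cell lysosomes that directs surface receptors to degradation, PPT1 is the lysosomal thioesterase that removes palmitate from proteins, and OSTM1 is the partner subunit of the lysosomal chloride transporter CLCN7.

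Intensities are the deposited values, in arbitrary units on a linear scale, and an exact 0 stood at 32.0% to 39.6% of all spots on each array. What that 0 stands for is not stated in the labels or in the table. On the arrays with a partner column that holds the sum of the same readings, 3 component readings lie behind each value, as set out further on. Among the 264 readings of the 12 spots, 80 were 0 and 1 carried an exclusion code. In unstimulated THP-1 cells 10.0% of these readings were 0, against 33.3% over all spots, and in TNF-treated THP-1 cells 14.3% against 34.3%. In CaCo-2 cells the share was 55.0% against 34.4% without TNF and 48.3% against 35.1% with it. The spots thus read 0 less often than the average spot in THP-1 and more often in CaCo-2. Since the genes were selected on these same data, this may follow from the selection and is given as a description. In cultures measured in bulk, fewer cells that express a gene and less RNA per cell cannot be told apart.

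**Figure D1:**
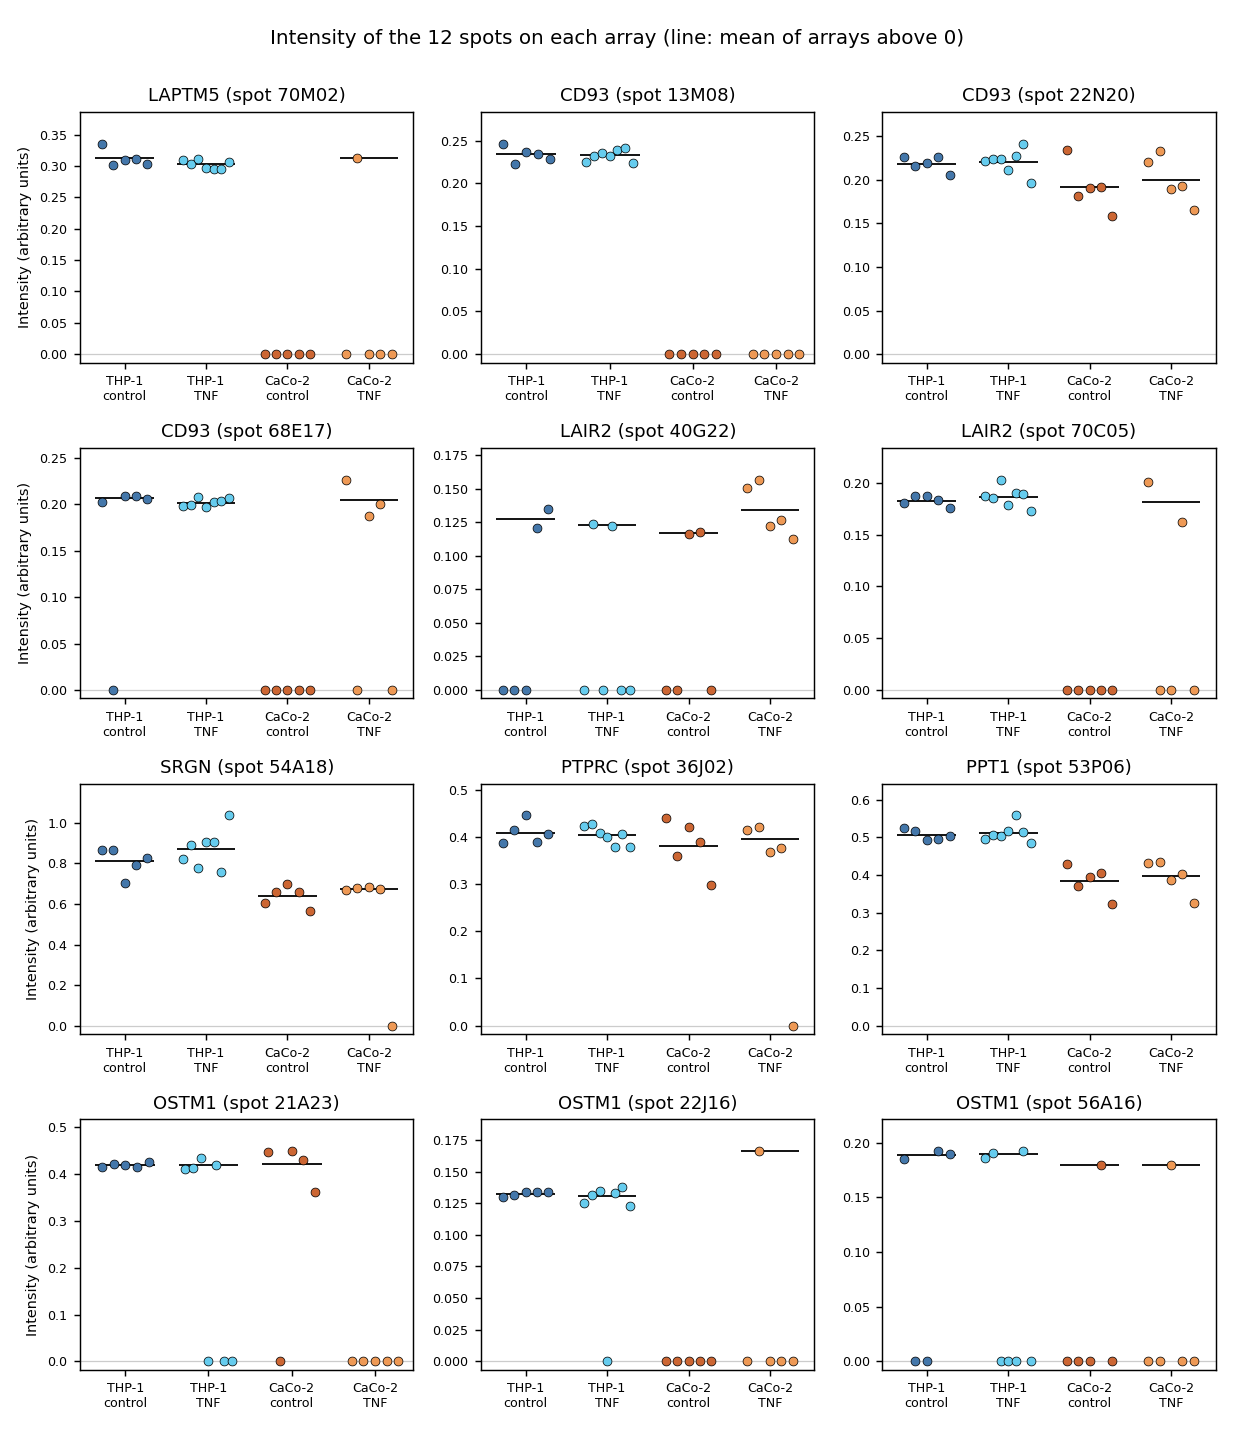
Deposited intensity (arbitrary units, linear axis from 0, scaled per panel) of each of the 12 spots on each array, without and with TNF, in THP-1 (5 and 7 arrays) and CaCo-2 (5 and 5). Each point is 1 array and the line is the mean of the arrays above 0. LAPTM5 and CD93 spot 13M08 are above 0 on all 12 THP-1 arrays and on 1 and 0 of 10 CaCo-2 arrays, while the PTPRC readings of the lines overlap.

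The promoters of 3 of the genes are shown because these genes differ in how their spots read across the lines: LAPTM5 was above 0 almost only in THP-1, PTPRC gave overlapping readings in both, and PPT1 was above 0 on every array at a lower level in CaCo-2. Each is the 250 bases before the annotated start from RefSeq (GRCh38.p14), 5′ to 3′ on the gene's strand. Capitals mark GGAAGT on either strand, an ETS-type core of the kind bound by the blood cell factor PU.1. LAPTM5 lies at chr1:30757775-30758024 on the minus strand, PTPRC at chr1:198638790-198639039 on the plus strand and PPT1 at chr1:40097253-40097502 on the minus strand.
LAPTM5: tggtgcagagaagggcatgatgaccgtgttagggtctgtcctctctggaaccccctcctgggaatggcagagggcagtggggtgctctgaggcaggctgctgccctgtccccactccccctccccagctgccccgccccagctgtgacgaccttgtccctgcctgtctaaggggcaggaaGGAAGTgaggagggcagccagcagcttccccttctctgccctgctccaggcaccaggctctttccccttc
PTPRC: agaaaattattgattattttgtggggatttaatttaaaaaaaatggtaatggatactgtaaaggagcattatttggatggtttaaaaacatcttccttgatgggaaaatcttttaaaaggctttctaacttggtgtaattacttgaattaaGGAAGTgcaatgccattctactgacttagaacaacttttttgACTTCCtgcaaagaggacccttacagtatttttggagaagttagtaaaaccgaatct
PPT1: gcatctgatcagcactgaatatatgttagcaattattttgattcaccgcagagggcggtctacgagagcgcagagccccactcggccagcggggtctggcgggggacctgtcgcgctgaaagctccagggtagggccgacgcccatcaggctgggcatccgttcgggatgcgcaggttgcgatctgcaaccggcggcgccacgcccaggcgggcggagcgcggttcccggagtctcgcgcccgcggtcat
GGAAGT occurred in 19.5% of 35116 promoters of this length. The LAPTM5 window held it 1 time, beginning 70 bases before the start, and the PTPRC window 2 times, 99 and 57 bases before the start, the second on the opposite strand. It was not among the letters of the PPT1 or OSTM1 windows. CACGTG, the core of the E-box found in many lysosomal gene promoters, reads the same on both strands and occurred in 6.34% of promoters. It was in none of these 3 windows nor in that of OSTM1. The windows also differed in base composition, with 28 CpG pairs in PPT1 and 36 in OSTM1, against 3 in LAPTM5 and 1 in PTPRC. The GC content was 64.8% in LAPTM5, 31.2% in PTPRC, 65.6% in PPT1 and 76.4% in OSTM1.

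Of the genes with a single spot, LAPTM5, the lysosomal protein of blood cells, separated the lines most by arrays at 0. In unstimulated THP-1 cells it read 0.335, 0.302, 0.310, 0.310 and 0.304 (mean 0.312 ± 0.014, SD, n = 5). After TNF the THP-1 readings ran from 0.295 to 0.311 with a median of 0.304 (n = 7). All 5 unstimulated CaCo-2 arrays were at 0, and among the 5 TNF-treated ones replicate 2 read 0.312 while the other 4 were at 0. That 1 CaCo-2 reading lay inside the range of the THP-1 intensities, but after normalization it stood at -1.84 on the log2 scale, just below the lowest TNF-treated THP-1 value of -1.82. In the CaCo-2 pair left out for its opposite labels, LAPTM5 was 0 in both columns.

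CD93, the monocyte surface glycoprotein, has 3 spots, which did not give the same account. Spot 13M08 read 0.246, 0.222, 0.237, 0.234 and 0.229 in unstimulated THP-1 cells (0.234 ± 0.009, SD, n = 5) and 0.224 to 0.241, median 0.232, after TNF (n = 7). It was at 0 on all 10 CaCo-2 arrays used. In the CaCo-2 pair left out for its opposite labels, however, the single column read 0.190 and the summed column 0.564, so this spot was not at 0 on every CaCo-2 membrane.

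Spot 22N20 of CD93 was above 0 on all 22 arrays. It read 0.227, 0.216, 0.219, 0.226 and 0.206 in unstimulated THP-1 cells and 0.196 to 0.241, median 0.223, after TNF. Unstimulated CaCo-2 arrays read 0.234, 0.181, 0.190, 0.191 and 0.159, and TNF-treated ones 0.221, 0.233, 0.189, 0.192 and 0.165. In the deposited values the groups overlapped, as 3 of 10 CaCo-2 arrays lay inside the THP-1 range and 7 below it. The CaCo-2 mean was 0.890 times that of THP-1. After normalization the TNF-treated groups did not overlap, with a highest CaCo-2 value of -2.30 and a lowest THP-1 value of -2.25 on the log2 scale. The unstimulated groups still overlapped, these values being -2.28 and -2.33. Spot 68E17 stood between the other two in its pattern. It was above 0 on 11 of 12 THP-1 arrays, from 0.197 to 0.210, and on 3 of 10 CaCo-2 arrays, all TNF-treated, at 0.227, 0.187 and 0.200. On the arrays used, all 3 spots had fewer CaCo-2 readings above 0 or lower ones than THP-1. The size ran from no reading above 0 on the 10 CaCo-2 arrays to 0.890 times.

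LAIR2, the soluble collagen-binding receptor, has 2 spots that differed in their pattern. Spot 70C05 read 0.175 to 0.188 on the 5 unstimulated THP-1 arrays and 0.172 to 0.203 on the 7 TNF-treated ones. It was at 0 on all 5 unstimulated CaCo-2 arrays and above 0 on 2 of 5 TNF-treated ones, at 0.200 and 0.162. Spot 40G22 was above 0 on 2 of 5 and 2 of 6 THP-1 arrays without and with TNF, and on 2 of 5 and 5 of 5 CaCo-2 arrays. Its readings were dim, from 0.113 to 0.157 where above 0, and 1 THP-1 TNF reading carried an exclusion code. With TNF, LAIR2 was thus above 0 on more THP-1 arrays by spot 70C05 and on more CaCo-2 arrays by spot 40G22, while without TNF spot 40G22 gave the same count in both lines.

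SRGN, the granule proteoglycan, was read in both lines. Unstimulated THP-1 arrays read 0.867, 0.864, 0.702, 0.790 and 0.825 (0.810 ± 0.068, SD, n = 5), and TNF-treated ones 0.758 to 1.04 with a median of 0.891 (0.870 ± 0.095, SD, n = 7). Unstimulated CaCo-2 arrays read 0.603, 0.661, 0.700, 0.659 and 0.567 (0.638 ± 0.053, SD, n = 5). TNF-treated CaCo-2 arrays read 0.667, 0.680, 0.683 and 0.672, and replicate 6 was at 0. Both columns of the CaCo-2 pair left out were at 0 as well. All 9 CaCo-2 readings above 0 lay below the lowest THP-1 reading of 0.702, with a mean 0.775 times that of THP-1. That lowest reading and the highest CaCo-2 reading, 0.700, almost touch, and the former comes from THP-1 control replicate 3, a summed column divided by 3.

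PTPRC, the leukocyte antigen CD45, gave overlapping readings in the lines. It read 0.387, 0.415, 0.446, 0.389 and 0.407 in unstimulated THP-1 cells (0.409 ± 0.024, SD, n = 5) and 0.378 to 0.428, median 0.407, after TNF. Unstimulated CaCo-2 arrays read 0.441, 0.361, 0.420, 0.389 and 0.299 (0.382 ± 0.055, SD, n = 5). After TNF the readings were 0.415, 0.422, 0.367 and 0.378, with replicate 6 at 0. Over arrays above 0 the CaCo-2 mean was 0.956 times that of THP-1. A spot named for a gene of nucleated blood cells was thus above 0 on 9 of 10 arrays of an epithelial line.

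PPT1, the palmitoyl-protein thioesterase, was above 0 on all 22 arrays and gave groups with no overlap. THP-1 control arrays read 0.525, 0.517, 0.492, 0.495 and 0.503 (0.506 ± 0.014, SD, n = 5), and THP-1 TNF arrays 0.485 to 0.559, median 0.506 (0.512 ± 0.023, SD, n = 7). CaCo-2 control arrays read 0.430, 0.370, 0.396, 0.405 and 0.322 (0.385 ± 0.041, SD, n = 5), and CaCo-2 TNF arrays 0.431, 0.434, 0.388, 0.403 and 0.326 (0.397 ± 0.044, SD, n = 5). The CaCo-2 mean was 0.767 times the THP-1 mean, and all 10 CaCo-2 arrays lay below the THP-1 range. Before normalization, CaCo-2 control replicate 5 and CaCo-2 TNF replicate 6 were the lowest of their groups here, at PTPRC, at SRGN and at CD93 spot 22N20.

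OSTM1, the CLCN7 subunit, has 3 spots with 3 patterns. Spot 21A23 read 0.415 to 0.425 on all 5 unstimulated THP-1 arrays and 0.411, 0.413, 0.433 and 0.419 on 4 of 7 TNF-treated ones, the other 3 being at 0. Unstimulated CaCo-2 arrays read 0.447, 0.449, 0.430 and 0.362, with replicate 2 at 0, and all 5 TNF-treated CaCo-2 arrays were at 0. Where above 0 its readings overlapped between the lines, and 8 of its 9 zeros lay on TNF arrays. Spot 22J16 was above 0 on 11 of 12 THP-1 arrays, from 0.122 to 0.138, and on 1 of 10 CaCo-2 arrays, at 0.166. The single column of the CaCo-2 pair left out read 0.123 there. Spot 56A16 was above 0 on 6 of 12 THP-1 and 2 of 10 CaCo-2 arrays, at 0.185 to 0.192 and at 0.180 on both.

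For the fits, a 0 was given the smallest value above 0 on its array, and arrays were quantile normalized on the log2 scale. Between the unstimulated lines, the contrast taken as the one behind the choice of genes, all 12 spots were lower in CaCo-2, with a median log2 difference of -0.33 beside 0.0054 over all spots. LAPTM5, CD93 spots 13M08 and 68E17, LAIR2 spot 70C05 and OSTM1 spot 22J16 were at 0 on all 5 CaCo-2 arrays, so their differences rest on the value set for 0. The log2 difference was -0.33 ± 0.02 (SE) for PPT1, -0.30 ± 0.06 for SRGN, -0.09 ± 0.04 for CD93 spot 22N20 and -0.02 ± 0.05 for PTPRC.

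The TNF-treated arrays of the lines are not shared with that contrast, and the line difference was fitted on them as well. Whether earlier results on these arrays bore on the choice of genes is not recorded. A share of calls above that of all spots may therefore follow from the selection. Of the 12 spots 11 were lower in TNF-treated CaCo-2 than in TNF-treated THP-1, with a median log2 difference of -0.41 beside 0.0071 over all spots. Limma with Benjamini-Hochberg adjustment called 3 of 12 spots lower and 0 higher, while 0.541% of all spots were called lower. The called spots were PPT1, CD93 spot 13M08 and LAPTM5. The log2 difference of PPT1 was -0.34 ± 0.03 (SE), its adjusted p was 8.11e-05 in limma, and all 5 CaCo-2 arrays lay below all 7 THP-1 arrays. CD93 spot 13M08 had an adjusted p of 7.19e-08 in limma, which rests on the value set for 0, since CaCo-2 was at 0 on all 5 arrays, and no fold is given. The LAPTM5 difference was -1.23 ± 0.23 (SE) on the log2 scale with an adjusted limma p of 0.0360, both resting on that value in 4 of 5 CaCo-2 arrays.

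The LAPTM5 call was lost when any 1 of 11 arrays other than CaCo-2 TNF replicate 2 was left out, with adjusted p from 0.0522 to 0.0938 in limma, with no normalization, at 0.0507, and under the replicate block, at 0.255. Without CaCo-2 TNF replicate 2, its single CaCo-2 array above 0, the adjusted p was 1.10e-08. The other 9 spots did not pass. LAIR2 spots 70C05 and 40G22 had log2 differences of -0.54 ± 0.14 and 0.22 ± 0.06 (SE), with adjusted p of 0.140 and 0.147 in limma. Without CaCo-2 TNF replicate 1, spot 70C05 passed at 0.0407 in limma, and over the 15 settings with all arrays its adjusted p ran from 0.0203 to 0.414. Spot 40G22, higher in CaCo-2, passed at 0.0419 in limma with array medians subtracted, and over its settings the adjusted p ran up to 0.909. Those of SRGN and PTPRC were -0.91 ± 0.42 and -0.45 ± 0.29 (SE), with adjusted p of 0.427 and 0.569 in limma, with CaCo-2 TNF replicate 6 at 0 in both. The 3 OSTM1 spots were all lower, with adjusted p between 0.333 and 0.737 in limma.

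With values at 0 taken as missing, only differences of level remain, and 7 of the 12 spots had at least 2 arrays above 0 in each TNF-treated group. Limma called 2 of these 7 lower in CaCo-2, SRGN and PPT1, beside 0.130% of all spots tested this way. The SRGN difference was -0.39 ± 0.06 (SE) with an adjusted limma p of 0.0197, over 4 CaCo-2 and 7 THP-1 arrays, and across the settings that p ran from 0.0197 to 0.589. PPT1 was at -0.36 ± 0.04 (SE) with an adjusted p of 0.00167 in limma, and across the settings that p ran from 3.06e-07 to 0.0566. CD93 spot 22N20 was at -0.15 ± 0.03 (SE) with an adjusted p of 0.0728 in limma, which was 0.0177 when only spots above 0 on every array were tested and up to 0.767 in other settings. PTPRC was at -0.08 ± 0.04 (SE) with an adjusted p of 0.416 in limma. LAIR2 spot 70C05 was at -0.13 ± 0.03 (SE) with an adjusted p of 0.115 in limma, over 2 CaCo-2 and 7 THP-1 arrays. CD93 spot 68E17 and LAIR2 spot 40G22 were at 0.01 ± 0.02 and 0.01 ± 0.03 (SE).

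**Figure D2:**
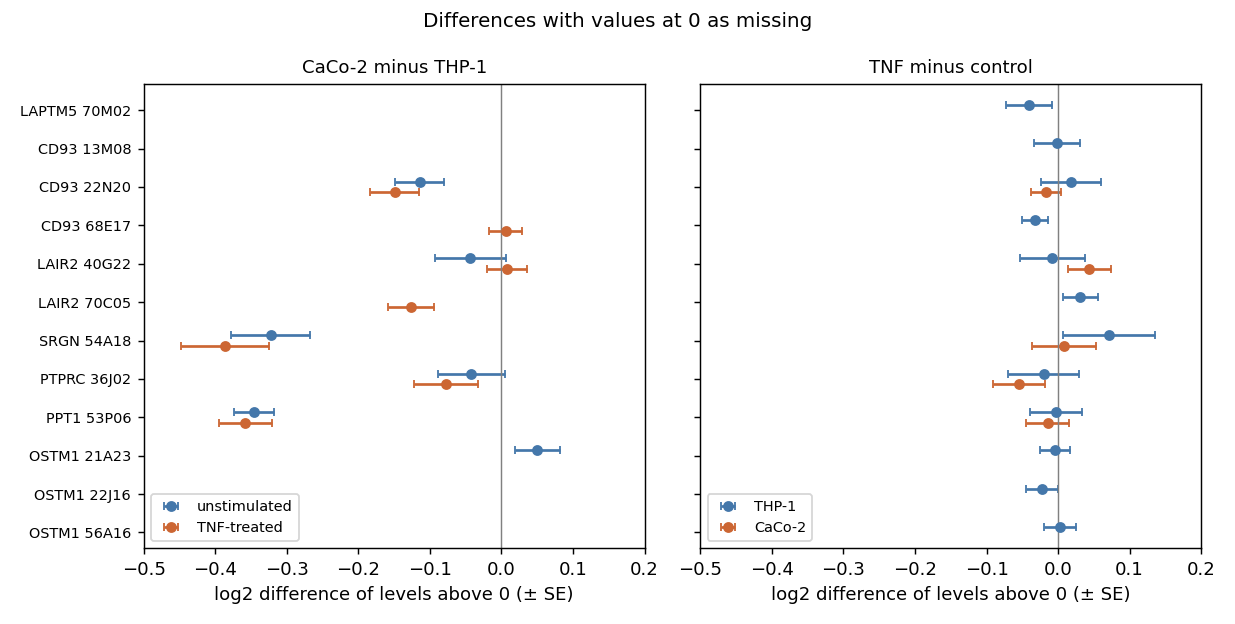
Log2 difference of levels ± SE in limma with values at 0 as missing, for each spot with at least 2 arrays above 0 in each group. The left panel sets CaCo-2 against THP-1, unstimulated (a description) and TNF-treated, and the right panel TNF against control in each line. SRGN and PPT1 lie between -0.39 and -0.32 in the left panel, and the values in the right panel lie between -0.05 and 0.07.

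The number of arrays above 0 was also compared between the TNF-treated lines, which needs no value for 0. By a two-sided Fisher exact test adjusted over the 25755 spots that could be tested, 0 of 10 testable spots of these genes passed, as did 0% of all spots, and the smallest p of any spot, 0.00126, had an adjusted value of 0.428. CD93 spot 13M08 had that p, with 0 of 5 CaCo-2 against 7 of 7 THP-1 arrays above 0, the largest separation these numbers of arrays allow. As even this separation did not pass, the test could call no spot here, and its lack of calls is not read as a lack of difference. LAPTM5, with 1 of 5 against 7 of 7, had an exact p of 0.0101 and an adjusted p of 0.790. LAIR2 spot 70C05, with 2 of 5 against 7 of 7, had an exact p of 0.0455 and an adjusted p of 0.876. At an unadjusted p under 0.05 there were 3 of the 10 spots and 1338 of all spots.

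Of the 22 arrays, 9 also have a partner column that sums the same readings, which shows what lies behind a 0. Where both columns were above 0, the sum was either 2 times the single value, to within 0.002, or more than 2.2 times it, apart from 2 to 24 readings per array, and 0 readings on any of the 9 arrays lay between. Read as 3 components per array, a ratio of 2 means that 2 components were above 0, a higher ratio means 3, and a sum above 0 beside a single value of 0 means 1. In CaCo-2, 99 of 216 components of the 12 spots were above 0, or 45.8%, and in THP-1 89 of 105, or 84.8%. Over all spots the shares were 65.2% and 65.7%. Components of an array are not replicates, and only 3 THP-1 arrays have such a column, so these shares are a description.

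By spot, LAPTM5 had 1 of 18 components above 0 in CaCo-2 and 9 of 9 in THP-1, and OSTM1 spot 22J16 had 1 of 18 and 8 of 9. CD93 had 2 of 18 against 9 of 9 at spot 13M08, 4 of 18 against 7 of 9 at spot 68E17 and 15 of 18 against 9 of 9 at spot 22N20. PTPRC was above 0 in 18 of 18 and 9 of 9 components, PPT1 in 16 of 18 and 9 of 9, and SRGN in 15 of 18 and 9 of 9. The opposite order stood at LAIR2 spot 40G22, with 11 of 18 in CaCo-2 and 1 of 6 in THP-1, while its other spot had 5 of 18 and 9 of 9. Of the 41 readings at 0 with a partner, 34 had no component above 0 and 7 had 1. In CaCo-2 control replicate 2, LAPTM5 had such a component at 0.262 and CD93 spot 13M08 one at 0.203.

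**Figure D3:**
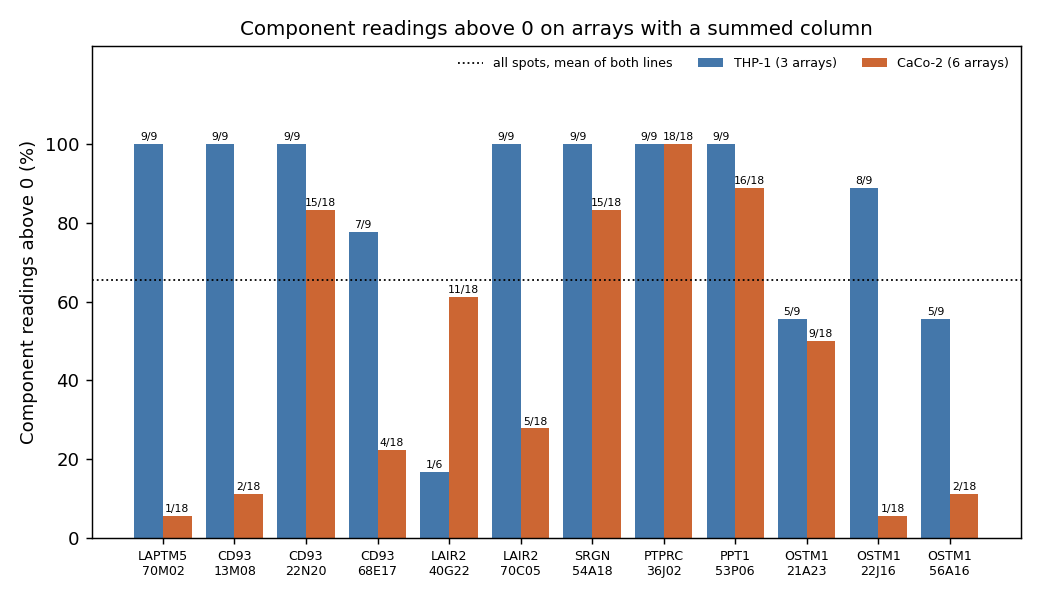
Share of component readings above 0 (%, axis from 0) at each of the 12 spots, over the 3 THP-1 and 6 CaCo-2 arrays that have a summed column. The numbers on the bars give components above 0 of all components, and the dotted line is the mean of both lines over all spots. LAPTM5, CD93 spot 13M08 and OSTM1 spot 22J16 have 1, 2 and 1 of 18 components above 0 in CaCo-2, and PTPRC has 18 of 18. Readings of OSTM1 spot 22J16 are dim in both lines.

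TNF moved none of the 12 spots past the threshold in either line. In CaCo-2, limma called 0 of 12 spots, beside 0.0434% of all spots. An unadjusted limma p under 0.05 stood at 3 of the 12, beside 1455 of all 34560 spots. OSTM1 spot 21A23 had the lowest of these, at -1.64 ± 0.39 (SE) on the log2 scale with an adjusted p of 0.561 in limma, and it was above 0 on 0 of 5 arrays with TNF and 4 of 5 without. Leaving out CaCo-2 control replicate 2, the one control array at 0, gave an adjusted p of 4.21e-06 in limma, which rests on the value set for 0, and the other 9 left-out arrays gave up to 0.764. Its other 2 spots were at 0.08 ± 0.08 and 0.0049 ± 0.218 (SE). LAIR2 spot 40G22 was at 0.21 ± 0.06 (SE) with an adjusted p of 0.870 in limma, and CD93 spot 68E17 at 0.56 ± 0.22 with one of 0.949. PPT1 was at -0.0026 ± 0.0212 (SE), and SRGN, with values at 0 as missing, at 0.01 ± 0.05.

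In THP-1 cells, limma called 0 of 12 spots after TNF, beside 0.0145% of all spots. An unadjusted limma p under 0.05 stood at 0 of the 12, beside 1166 of all 34559 spots. OSTM1 spot 21A23 had the lowest log2 difference, -0.85 ± 0.46 (SE), with 3 of 7 arrays at 0 after TNF against 0 of 5 before, and an adjusted p of 0.958 in limma. SRGN was at 0.09 ± 0.08 (SE), PTPRC at -0.0024 ± 0.0412 and PPT1 at 0.01 ± 0.03. The difference between the lines in the TNF effect, tested as an interaction over all 22 arrays, was called for 0 of 12 spots and for 0% of all spots, with 1443 of all spots at an unadjusted p under 0.05. Its lowest p among these spots was at LAIR2 spot 40G22, with 0.23 ± 0.10 (SE), an unadjusted p of 0.0358 and an adjusted p of 0.981 in limma. For the genes read on most arrays the differences after TNF were within 0.1 on the log2 scale in both lines once values at 0 were left out.

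Averaged over the spots of a gene, the called genes between the TNF-treated lines were LAPTM5, CD93 and PPT1. Their adjusted p were 0.0279, 0.00228 and 0.000108 in limma over 10726 genes. The share of all genes called by this mean was not kept, so nothing is read from the number of genes called. LAPTM5 and PPT1 have 1 spot each, so for them the mean is the same reading as before. CD93 was lower by this mean, at -0.55 ± 0.07 (SE), although its 3 spots differed in size. LAIR2 was at -0.21 ± 0.09 (SE) and OSTM1 at -0.50 ± 0.19, with adjusted p of 0.391 and 0.291 in limma.

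The wider groups around these genes are given by their counts called between the TNF-treated lines, where 1.25% of all spots were called in either direction, so that lists of this size allow little to be read from a count near 0. Of 14 measured leukocyte surface genes 0 were called, with a median log2 difference of 0.03 beside 0.0094 over all genes. SELPLG, the P-selectin ligand, was nearest, at -0.41 ± 0.11 (SE), with an adjusted p of 0.146 in limma and 1 of 5 CaCo-2 against 7 of 7 THP-1 arrays above 0. Among 6 measured kinases and phosphatases around CD45 and 3 relatives and partners of CD93, 0 were called in each, with medians of -0.05 and 0.62. Of 8 granule and proteoglycan genes 0 were called, with a median of -0.02.

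Of 23 measured lysosomal genes 1 was called, beside 1.25% of all spots. NEU1, the lysosomal sialidase, was higher in CaCo-2 by 0.09 ± 0.02 (SE) with an adjusted p of 0.0341 in limma, the opposite direction to PPT1. The list had 12 genes higher and 11 lower and a median of 0.01. Of 11 genes of neuronal ceroid lipofuscinosis, the storage disease that loss of PPT1 causes in one form, and of the OSTM1 partner family, 0 were called, with a median of -0.06. TPP1, the tripeptidyl peptidase of that group, was at -0.29 ± 0.12 (SE), with an adjusted p of 0.339 in limma. Of 10 subunits of the proton pump that acidifies lysosomes 0 were called, with a median of -0.01. In none of these 7 lists was a gene called after TNF in either line.

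Few defining markers had a spot of their own. Of 18 monocyte markers 4 were measured, and CYBB, the phagocyte oxidase subunit, was above 0 on 11 of 12 THP-1 and 3 of 10 CaCo-2 arrays, at -0.76 ± 0.15 (SE) between the TNF-treated lines with an adjusted p of 0.0426 in limma. TYROBP, CSF1R and CD36 were above 0 on at least 8 arrays of each line. Their differences between the TNF-treated lines were 0.20 ± 0.19, 0.23 ± 0.26 and -0.01 ± 0.04 (SE), and the median of the monocyte markers was 0.09. Of 18 epithelial markers 4 were measured. ELF3, an epithelial transcription factor, was at 0 on all 12 THP-1 arrays and above 0 on 8 of 10 CaCo-2 arrays. Between the TNF-treated lines ELF3 was at 0.20 ± 0.07 (SE) with an adjusted p of 0.224 in limma. VIL1, CDH17 and CLDN4 were above 0 on at least 10 arrays of each line. Between the TNF-treated lines they were at 0.33 ± 0.15, -0.01 ± 0.05 and -0.145 ± 0.042 (SE). Of 12 lymphocyte and 10 fibroblast and endothelial markers 3 and 7 were measured, and 0 of each were called. As with PTPRC, most spots named for a gene of one cell type were read in both lines, and the part of other cells or other transcripts in these readings was not tested.

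For each gene's brightest spot, the 3 spots of other genes with the highest Pearson r over the 22 arrays are given as a description. The points share the normalization, the value set for 0 and the split between the lines. Nearest to LAPTM5 were PLAC8 (0.923), CD93 (0.922) and IL6R (0.917), and nearest to PPT1 were CD93 (0.980), IL6R (0.975) and MAPK8IP3 (0.937). IL6R, the interleukin-6 receptor, was above 0 on all 12 THP-1 and 0 of 10 CaCo-2 arrays, like CD93 spot 13M08. LAIR2 was nearest to HLA-E (0.940), RAMP2 (0.883) and SH3BGRL (0.865), which were above 0 on 12 of 12 THP-1 and 1, 3 and 4 of 10 CaCo-2 arrays. CD93, by spot 22N20, was nearest to PPT1 (0.805), EMB (0.789) and MBP (0.783).

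SRGN was nearest to HOMER3 (0.987), SVIL-AS1 (0.973) and DHX16 (0.973), and PTPRC to ANKH (0.992), TSKU (0.992) and COLGALT1 (0.992). All 6 of these spots were above 0 on 12 of 12 THP-1 and 9 of 10 CaCo-2 arrays, and at 0 in CaCo-2 TNF replicate 6, as SRGN and PTPRC were. Without that array r was 0.883, 0.710 and 0.743 for the SRGN neighbours and 0.632, 0.689 and 0.632 for those of PTPRC. OSTM1 spot 21A23 had lower values, with UBXN2A (0.769), LOC100287846 (0.764) and ZMYM6 (0.742).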

How the data were processed

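The deposited array intensities are linear, judging by their range. How the authors analysed images, treated background or scaled arrays was not given in the sources used here. Negative codes (46 to 286 spots per array) were set to missing.

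Of 33 columns, 11 hold sums. For 10 of these, the single column was 0 at every spot where the sum was 0, and each such pair was counted once through its single column. The pair labelled CaCo-2 control in the sum and CaCo-2 TNF in the single column was left out. The sum without a partner, THP-1 control replicate 3, was divided by 3. Values at 0 were raised to the array's lowest positive value (0.0921 to 0.136 in single columns), log2 was taken and arrays were quantile normalized. Tests used lmFit and eBayes with a trend in limma 3.58.1 (R 4.3.3), two-sided, fitted on all spots of the groups compared (the interaction on all 4 groups) with Benjamini-Hochberg adjustment and a threshold of 0.05, and Fisher's exact test in SciPy 1.17.1 (Python 3.11.15, pandas 2.3.3). The script was tested on simulated data. These held no values at 0, and changes were placed only in spots above 0 on every array. Differences that rest on the value set for 0 were therefore not covered.

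The genes and lists were chosen with earlier results of these data known. Named genes were all spots of the 7 genes, per list up to 4 genes with the smallest p between the TNF-treated lines (a selection is printed; a gene is represented by its brightest spot), and the 3 spots of other genes most correlated with each gene. Spots with several symbols (858) or none (15677) were not named. Alternatives covered values at 0, normalization, repeated columns, arrays in the fit, trend, array weights, dim spots, the replicate block, left-out arrays and gene means. Those that fill zeros from the partner or enter the pair with opposite labels were chosen after seeing the data. The replicate numbers did not consistently pair the arrays. The number of arrays limits precision. Promoters of 4 of the 7 genes were matched by symbol.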

Additional observations from a re-analysis of the deposited data

Results flagged for a closer look

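In 41 sets of 5 to 7 readings of a spot in a group, 10 single arrays stood apart from the rest of their group by Dixon's criterion. Chance flags about 1 in 20 sets of readings without ties, a share that does not apply to sets with several readings at 0. In the 4 sets with 1 array above 0 and the rest at 0 the criterion is met by construction. LAPTM5 read 0.335 in THP-1 control replicate 1, above the other 4, and 0.312 in CaCo-2 TNF replicate 2, where the other 4 were at 0. CD93 spot 68E17 was at 0 in THP-1 control replicate 2. SRGN and PTPRC were both at 0 in CaCo-2 TNF replicate 6, where the other 4 arrays were above 0. OSTM1 spot 21A23 was at 0 in CaCo-2 control replicate 2, and spot 22J16 at 0 in THP-1 TNF replicate 4. OSTM1 spot 22J16 read 0.166 in CaCo-2 TNF replicate 2 and spot 56A16 read 0.180 in both CaCo-2 control replicate 4 and CaCo-2 TNF replicate 4, each the one array above 0 in its group. Of the 10, only LAPTM5 in THP-1 control replicate 1 did not involve a 0.

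The summed columns, which the comparisons do not use, held a value at 7 readings whose single column was 0. In CaCo-2 control replicate 2 these were LAPTM5 at 0.262, CD93 spot 13M08 at 0.203 and LAIR2 spot 70C05 at 0.166. CD93 spot 13M08 also held 0.172 in CaCo-2 control replicate 3. CD93 spot 68E17 held 0.186 and LAIR2 spot 40G22 0.120 in THP-1 control replicate 2, and OSTM1 spot 22J16 held 0.112 in CaCo-2 TNF replicate 5. The cause was not tested.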

How the results depend on the processing

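Besides left-out arrays, 16 settings were run, in 145 model fits. Among spots called in TNF-treated CaCo-2 against TNF-treated THP-1, the count of 3 was 1 without normalization, 5 with array medians subtracted (4 lower and LAIR2 spot 40G22 higher in CaCo-2), which also moved the split over all spots from 245 higher and 187 lower to 2284 and 225, and 2 to 3 with an array left out. Without normalization PPT1 had an adjusted p of 0.0566 and LAPTM5 one of 0.0507 in limma, and CD93 spot 13M08 stayed called in all 14 settings that could fit it and all 12 left-out arrays. Of the 12 spots lower in unstimulated CaCo-2, 5 of 6 testable ones were lower with values at 0 as missing, 4 of 4 when only spots above 0 on every array were used, and 10 to 12 with an array left out. After TNF in CaCo-2, 0 to 1 spot was called with an array left out, and 1 without CaCo-2 control replicate 2.

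With the replicate number as a block, 2 of 12 spots were called between the TNF-treated lines, 0 in each TNF comparison and 0 in the interaction, and 11 were lower in unstimulated CaCo-2. The block moved the calls over all spots from 432 to 163 between the TNF-treated lines, from 15 to 4 in CaCo-2 and from 5 to 73 in THP-1. Same-numbered arrays correlated at -0.37 to 0.67 over 6401 spots. CaCo-2 replicate 1, at 0.67, was matched best by its own number and no other replicate was, so the numbers gave no consistent pairing. No called direction turned under any setting. Without normalization 149 spots in all were called between the TNF-treated lines. The limits are the 5 to 7 arrays of a group and the unknown meaning of a 0. That meaning bears on line differences at every spot here except PPT1 and CD93 spot 22N20, which were above 0 on every array.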
